A study of Mus musculus with 2 samples.

Results

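The chemokine ligands Ccl2, Ccl7, Ccl8 and Ccl12, which draw monocytes into tissue, and the receptor Ccr2 were followed through single-cell RNA profiles of leukocytes from mouse melanomas. These 5 genes were taken by symbol from the 32432 genes and features of the count matrices, and all 5 were detected: Ccl2 (ENSMUSG00000035385), Ccl7 (ENSMUSG00000035373), Ccl8 (ENSMUSG00000009185), Ccl12 (ENSMUSG00000035352) and Ccr2 (ENSMUSG00000049103). In the 22051 cells kept, 417415 UMIs (unique molecular identifiers, each standing for 1 captured transcript) belonged to Ccl2, 218977 to Ccl7, 138782 to Ccl12, 22036 to Ccl8 and 144697 to Ccr2. Male mice of 8 to 12 weeks received B16-F10 melanoma cells in Matrigel in the skin of both legs, 1 mg tamoxifen by intraperitoneal injection for 3 days from day 5, and were harvested on day 14. One group carried Trex1 fl/fl with R26CreERT2 ki/wt (called iKO here), and the other Trex1 wt/fl with R26CreERT2 ki/wt (called control). Both groups therefore carried the ubiquitously expressed, tamoxifen-inducible Cre and both received tamoxifen, and the controls were heterozygous for the conditional allele rather than wild type. Live CD45+ cells were sorted, so tumour cells, fibroblasts and endothelium, which can also make these chemokines, were gated out. There were 4 hashtagged samples per genotype, the iKO samples pooled in 1 capture and the controls in a second, which means that an effect of genotype and an effect of the capture cannot be told apart. Nothing states whether a hashtagged sample is 1 mouse, so p-values measure the spread between these samples.

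Ccr2 is the G protein-coupled receptor through which classical monocytes leave the bone marrow and enter inflamed tissue and tumours. Ccl2, Ccl7 and the mouse chemokine Ccl12 are its agonists. Ccl8 is a close relative of these ligands that in the mouse also signals through Ccr8. Monocytes that have entered a tumour lose Ccr2 as they mature into macrophages, and macrophages, stromal cells and tumour cells are known sources of the ligands. Trex1 is the cytosolic DNA exonuclease whose loss lets DNA accumulate and drive type I interferon through cGAS and STING.

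In the RefSeq gene order of assembly GRCm38.p6, Ccl2, Ccl7, Ccl11, Ccl12, Ccl8 and Ccl1 follow each other on mouse chromosome 11 (with the predicted gene Gm38913 between Ccl11 and Ccl12), whereas Ccr2 lies on chromosome 9. The promoter windows of 3 of the 5 members, Ccl8, Ccl12 and Ccr2, were available from RefSeq for that assembly. The Ccl12 and Ccl8 windows are shown because these neighbouring genes had different cellular patterns in the data. Each is the 250 bases before the annotated start, plus strand, 5′ to 3′, at chr11:82101595-82101844 for Ccl12 and chr11:82114935-82115184 for Ccl8 (GRCm38.p6). Capitals mark matches to a TATA box (TATAAAAG) and to the core of the PU.1 site (GAGGAA, or TTCCTC on the other strand).
Ccl12: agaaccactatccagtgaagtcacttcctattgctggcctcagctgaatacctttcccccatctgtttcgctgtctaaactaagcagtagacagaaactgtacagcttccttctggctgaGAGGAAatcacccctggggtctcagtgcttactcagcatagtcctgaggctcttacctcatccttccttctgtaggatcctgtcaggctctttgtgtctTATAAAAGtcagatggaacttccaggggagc
Ccl8: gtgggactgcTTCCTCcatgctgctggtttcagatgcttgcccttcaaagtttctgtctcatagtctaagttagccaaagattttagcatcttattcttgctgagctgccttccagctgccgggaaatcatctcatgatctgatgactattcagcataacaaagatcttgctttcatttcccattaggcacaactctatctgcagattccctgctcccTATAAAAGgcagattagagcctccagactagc
The TATA box began 31 bases before the start in Ccl12 and 32 bases before it in Ccl8, and 1.62% of 27025 promoter windows of the same length held it on either strand. A PU.1 core lay 130 bases before the start in Ccl12 and 240 bases before it in Ccl8, and 23.1% of windows held one. Aligned end to end with free end gaps, the Ccl12 and Ccl8 windows were identical at 161 of 217 aligned bases (74.2%), against 58 of 71 (81.7%) for Ccl12 with Ccr2 and 52 of 68 (76.5%) for Ccl8 with Ccr2. The aligned stretch was longer for the neighbouring pair, with 161 identical bases against 58 and 52. Free end gaps let a short stretch be picked for the other pairs, so percentages over such unlike lengths cannot be compared. The letters of an NF-kB site (GGG and TTTCC spaced by 2 free bases, in 1.40% of windows), a GAS element (TTCNNNGAA, 7.18%), an interferon-stimulated response element (2 GAAA units spaced by 2 free bases, 3.04%) and an AP-1 site (TGANTCA, 6.87%), searched on both strands, matched none of the 3 windows. A match or its absence describes these letters in this window and no binding.

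Levels are given as CPM, a gene's UMIs summed over the cells of a group within a sample and scaled to the same total for every such sum. The 8 samples held 1296 to 5718 kept cells each. Median depth per deposited cell was 12535.5 to 14221 UMIs in the iKO samples and 5794 to 11490 in the controls. No barcode was shared between samples of 1 pool, and 7 to 14 barcodes per sample also occurred in the other pool. Trex1 could not serve as a check of the labels: the iKO samples held 0 Trex1 UMIs, which allows up to 0.0333 to 0.157 CPM (3 counts of a sample's total), and the controls held 2 in all. The label calls the sorted cells tumour-infiltrated lymphocytes, but 38.4% of the kept cells were monocyte/macrophage-like by their markers, and Ptprc, which encodes CD45, was at 252 CPM or more in every class. Samples iKO 1 and iKO 2 stood apart from iKO 3 and iKO 4: a cluster led by Pf4 and Mrc1 (cluster 8) made up 0.765% and 0.630% of the cells of the first pair and 5.94% and 7.54% of the second. Control 4 stood apart from the other controls in the same cluster, with 14.5% against 2.05% to 2.95%.

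The ligands came from monocyte/macrophage-like cells. Over the 8 samples these cells supplied 92.2% ± 5.57 (SD) of a sample's Ccl2 UMIs, 94.2% ± 4.96 of its Ccl7 UMIs, 91.8% ± 6.82 of its Ccl12 UMIs and 90.1% ± 9.23 of its Ccl8 UMIs. They supplied a smaller part of Ccr2, 73.7% ± 8.17, with 8.98% ± 2.39 from cells of unnamed clusters, 7.01% ± 3.92 from cDC2-like dendritic cells, 2.80% ± 0.984 from Treg-like cells and 2.82% ± 3.09 from CD8 T-like cells. In the unnamed clusters 19 (651 cells) and 33 (52 cells) monocyte/macrophage was the best-scoring type. Their top genes included the melanoma genes Dct and Pmel in cluster 19 and B cell genes in cluster 33. The monocyte/macrophage-like shares leave these cells out. With 4 samples per group, a lone result at the smallest possible exact permutation p could not pass after adjustment over 5 members. The share from monocyte/macrophage-like cells overlapped between genotypes for every member. It was 95.0% ± 1.62 in iKO and 89.4% ± 6.995 in control samples for Ccl2, with an exact two-sided permutation p of 0.229 (n = 4 per group, adjusted p 0.429 over 5 members). For Ccr2 it was 77.5% ± 5.28 against 69.9% ± 9.502, with the same exact permutation p of 0.229 and adjusted p of 0.429.

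Within monocyte/macrophage-like cells the level of Ccl2 was 3432, 3317, 2763 and 2228 CPM in iKO 1 to 4 and 2368, 2144, 1312 and 3760 CPM in control 1 to 4. B-like cells, which are not known as a source, held Ccl2 at 95.6 to 159 CPM in the 8 samples, and CD4 T-like cells at 57.6 to 120 CPM. CD8 T-like and NK-like cells (43.9 to 160 CPM) lay in the same range, and levels of this size were read as background, since free RNA in droplets gives counts to cells that do not express a gene. This reading was not tested, and B-like cells (median 4012 UMIs) are only a rough guide for cells with more UMIs. Mature DC-like cells (40.0 to 557 CPM) and Treg-like cells (47.8 to 369 CPM) exceeded the B-like range in some samples. Neutrophil-like cells lay above the B-like range in every sample, from 194 to 1390 CPM. For Ccl7, B-like cells held 36.6 to 117 CPM against 639 to 2143 CPM in monocyte/macrophage-like cells. For Ccl12 the ranges were 23.1 to 68.0 CPM against 217 to 1632 CPM. Ccl8 in B-like cells was 3.89 to 9.20 CPM in iKO and 11.2 to 48.6 CPM in control samples, against 74.4 to 337 CPM in monocyte/macrophage-like cells. cDC2-like cells held Ccl8 in much the same range as B-like cells, at 0.817 to 5.16 CPM in iKO and 5.94 to 51.1 CPM in control samples.

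Ccr2 was spread over more classes. Monocyte/macrophage-like cells held it at 635 to 971 CPM, cDC2-like cells at 345 to 584 CPM, NK-like cells (4 samples with enough cells) at 423 to 486 CPM, Treg-like cells at 215 to 581 CPM and CD4 T-like cells at 204 to 354 CPM. cDC1-like cells followed at 116 to 212 CPM and pDC-like cells at 117 to 243 CPM. CD8 T-like cells (42.2 to 88.5 CPM) and B-like cells (22.1 to 67.1 CPM) overlapped, and mature DC-like cells, which have switched to the lymph-node homing receptor Ccr7, held 12.2 to 115 CPM. NK-like, cDC2-like and Treg-like cells could not be ordered, since their ranges over samples overlapped. Ccr2 was thus above the B-like range in every sample of the monocyte/macrophage-like, cDC2-like, NK-like, Treg-like, CD4 T-like, cDC1-like and pDC-like profiles.

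**Figure D1:**
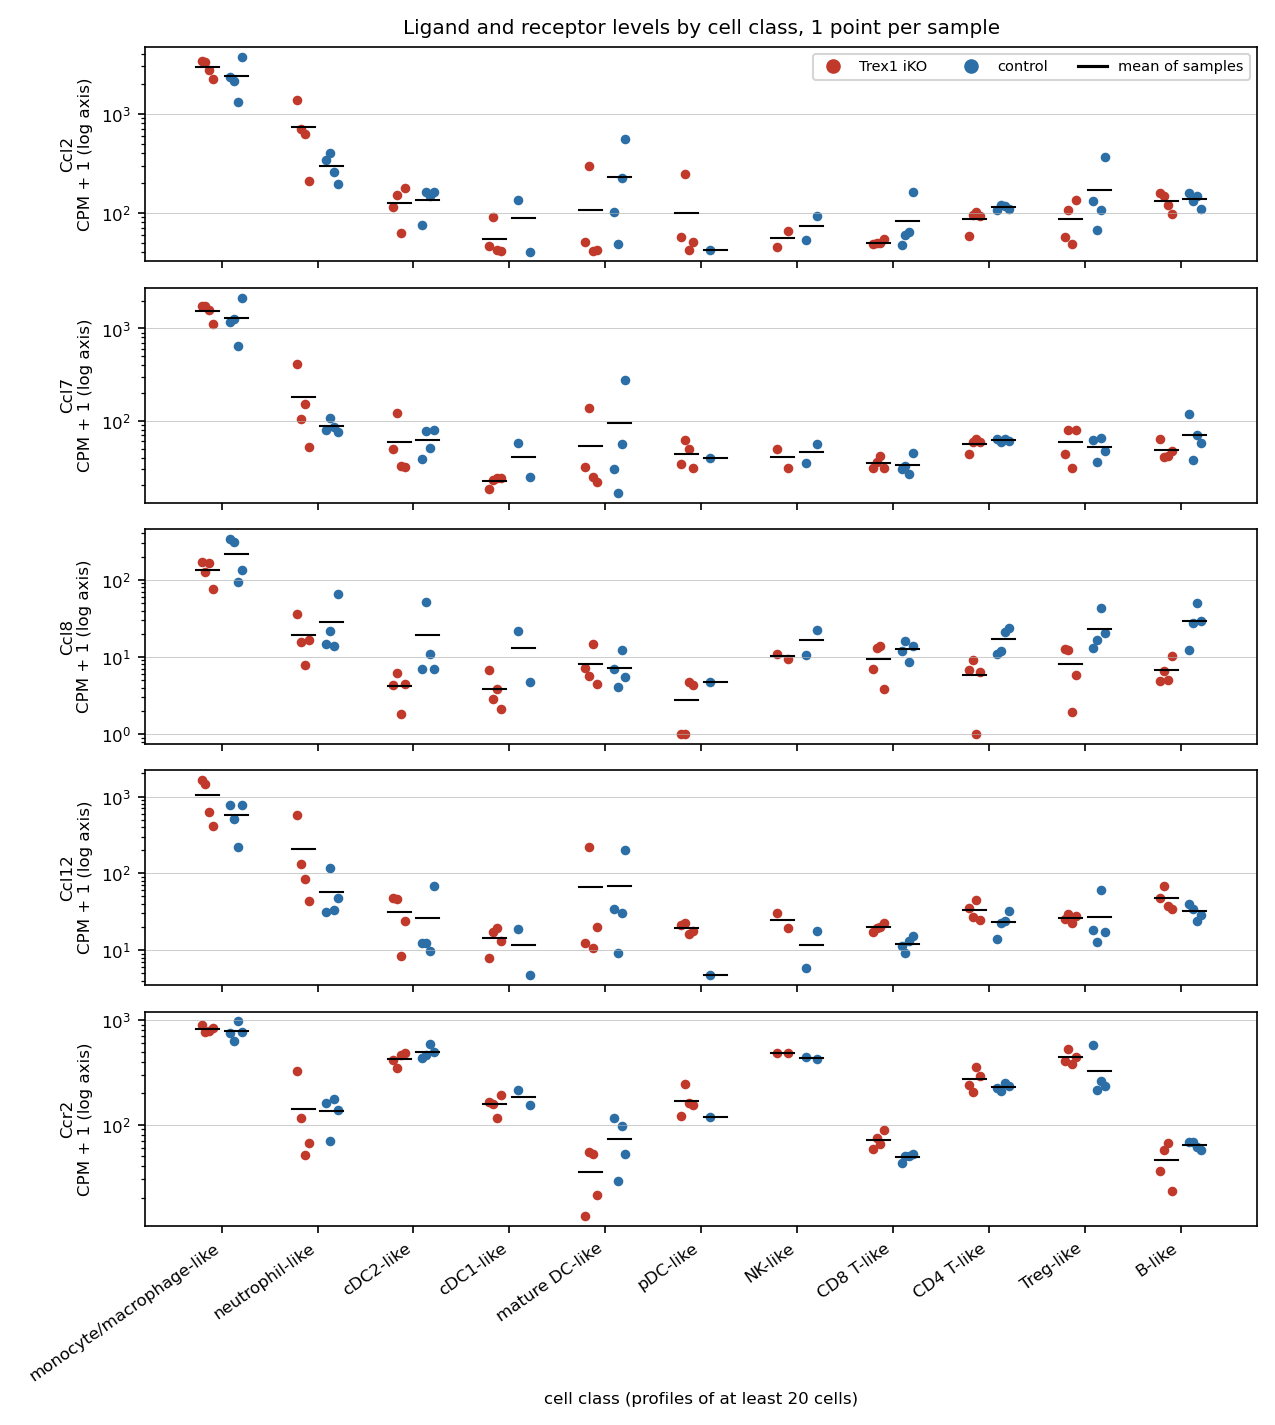
Level of each gene (CPM + 1, log axis) by cell class, 1 point per sample with at least 20 cells of the class and black bars for the mean of each genotype. Ccl2 is 1312 to 3760 CPM in monocyte/macrophage-like cells and at most 557 CPM in the lymphoid and dendritic classes, whereas Ccr2 is 345 to 584 CPM in cDC2-like cells and 215 to 581 CPM in Treg-like cells.

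Among the 12 monocyte/macrophage-like clusters, which were formed without the 5 members, Ccl2, Ccl7 and Ccl12 were ordered much alike and Ccl8 and Ccr2 each differently. Ccl2 was highest in cluster 8, whose leading genes were Pf4 and the mannose receptor Mrc1. There it reached 11513, 13775, 8427 and 4692 CPM in iKO 1 to 4 and 7060, 6319, 3537 and 7618 CPM in control 1 to 4. This cluster held the highest Ccl2 level of all 12 in 8 of 8 samples, and likewise the highest Ccl7 level in 8 of 8 samples (1981 to 8590 CPM). Ccl12 was highest there in 6 of 8 samples and in cluster 12 in the other 2. The values of iKO 1 and iKO 2 in cluster 8 rest on 29 and 36 cells. Cluster 8 exceeded cluster 2, led by Mmp12 and Arg1, in Ccl2 by 1.66- to 5.48-fold within a sample, median 3.28-fold, in 8 of 8 samples.

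The next Ccl2 level belonged to cluster 11, at 5213 ± 2067 CPM (SD, 4 iKO samples). This cluster was named Cxcl9/Cxcl10 macrophage-like. Its leading genes outside the members were Tmem171, Il1rn (the interleukin-1 receptor antagonist) and Rsad2, with Nos2 also among its top genes. Then came cluster 12 (Ch25h and Slamf9, with Cxcl9 and Gbp2b also among its top genes), at 3012 ± 126 CPM (3 iKO samples). Cluster 6 (Retnla, Lpl and C1qb) followed at 2914 ± 1710 CPM (8 samples). Pooled over samples, clusters 11 and 12 are 94.0% and 95.4% iKO cells, but iKO 1 and iKO 2 held the most cells of all samples. Cluster 12 made up 8.99%, 5.89%, 1.00% and 1.11% of the cells of iKO 1 to 4 and 0.118% to 0.972% in the controls. Cluster 11 made up 7.49%, 6.37%, 2.08% and 2.14% against 0.354% to 0.776%. No control sample had 20 cells of either cluster, so no genotype comparison was possible within them. Neighbours from cluster 12 to cluster 25 (1913 ± 775 CPM) did not differ beyond their spread over samples. At the bottom lay the Chil3- and Hp-led monocyte cluster 22, at 162 ± 65.3 CPM, and 2 clusters with Ace and Treml4, genes of non-classical, patrolling monocytes, among their top genes. Of these, cluster 3 held Ccl2 at 198 ± 85.7 CPM (7 samples) and cluster 26 at 103 ± 17.4 CPM (4 iKO samples). These levels are near that in B-like cells.

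The 2 monocyte-like clusters differed in ligand content. Cluster 15, led by Dmkn, Vcan and Chil3, held Ccl2 at 1117 ± 597 CPM, 2.76- to 12.6-fold above cluster 22 within a sample in 7 of 7 samples. Its Ccl7 stayed at 158 ± 62.3 CPM and its Ccl12 at 130 ± 96.2 CPM, so Ccl2 predominated among its ligands. Cluster 8 exceeded cluster 22 by a median of 49.0-fold for Ccl2, 141-fold for Ccl7 and 109-fold for Ccl12 within a sample (7 samples).

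Ccl8 was concentrated in cluster 25, which was led, apart from Ccl8 itself, by Vcam1, Fcrls, Igf1 and the complement gene C1qc. There Ccl8 was 1129, 816 and 411 CPM in iKO 2 to 4 and 2459, 2085, 952 and 989 CPM in control 1 to 4. In 7 of 8 samples this was the cluster of highest Ccl8 among those with at least 20 cells. The exception was iKO 1, which had fewer than 20 cells of cluster 25 and had its highest level in cluster 12. Elsewhere Ccl8 was 269 ± 95.8 CPM in cluster 12, 247 ± 271 CPM in cluster 8, a mean of 31.0 to 109 CPM in clusters 2, 24, 6 and 11, and at most 12.5 ± 9.05 CPM in clusters 17, 3, 22, 26 and 15. Cluster 25 held Ccl2 at 814 to 2964 CPM, below cluster 8 in all 7 samples that had both.

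Ccr2 was highest in the monocyte clusters and lowest in cluster 26, and the 2 clusters with non-classical-type genes differed. The monocyte clusters 22 and 15 held 1441 ± 143 CPM (7 samples) and 1263 ± 139 CPM (8 samples), ranges that overlapped. Clusters 17 and 6 followed at 1092 ± 149 and 1082 ± 145 CPM. The Pf4- and Mrc1-led cluster 8, highest in Ccl2 and Ccl7, still held 842 ± 128 CPM. Of the non-classical-type clusters, the larger cluster 3 (998 cells) held 683 ± 49.2 CPM (7 samples) and cluster 26 (312 cells) 117 ± 18.6 CPM (4 iKO samples), ranges that do not overlap. The Arg1-marked cluster 2 held 377 ± 35.6 CPM and cluster 25 held 267 ± 79.1 CPM. Cluster 22 exceeded cluster 25 by 3.57- to 8.27-fold in 6 of 6 samples.

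Over the 12 clusters the mean log2(CPM + 1) of Ccl2 correlated with that of Ccl7 at r = 0.97 and with that of Ccl12 at r = 0.96, with Ccl8 at 0.71 and with Ccr2 at 0.27. Ccl8 and Ccr2 correlated at r = -0.13. These values describe 12 clusters that share their libraries. Over 15 classes and subsets, and outside the members, the genes with the pattern most like Ccl2 were C3ar1, Stab1 and F7 (r = 0.97 to 0.98), those most like Ccl7 were Ms4a7, Lpl and F7 (0.95 to 0.97), those most like Ccl12 were Ms4a7, Siglec1 and Lpl (0.94 to 0.97), those most like Ccl8 were C1qa, Gas6 and Itga9 (0.92 to 0.94), and those most like Ccr2 were Mfsd5, Tln1 and Pycard (0.88 to 0.91), among 10050 genes compared.

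**Figure D2:**
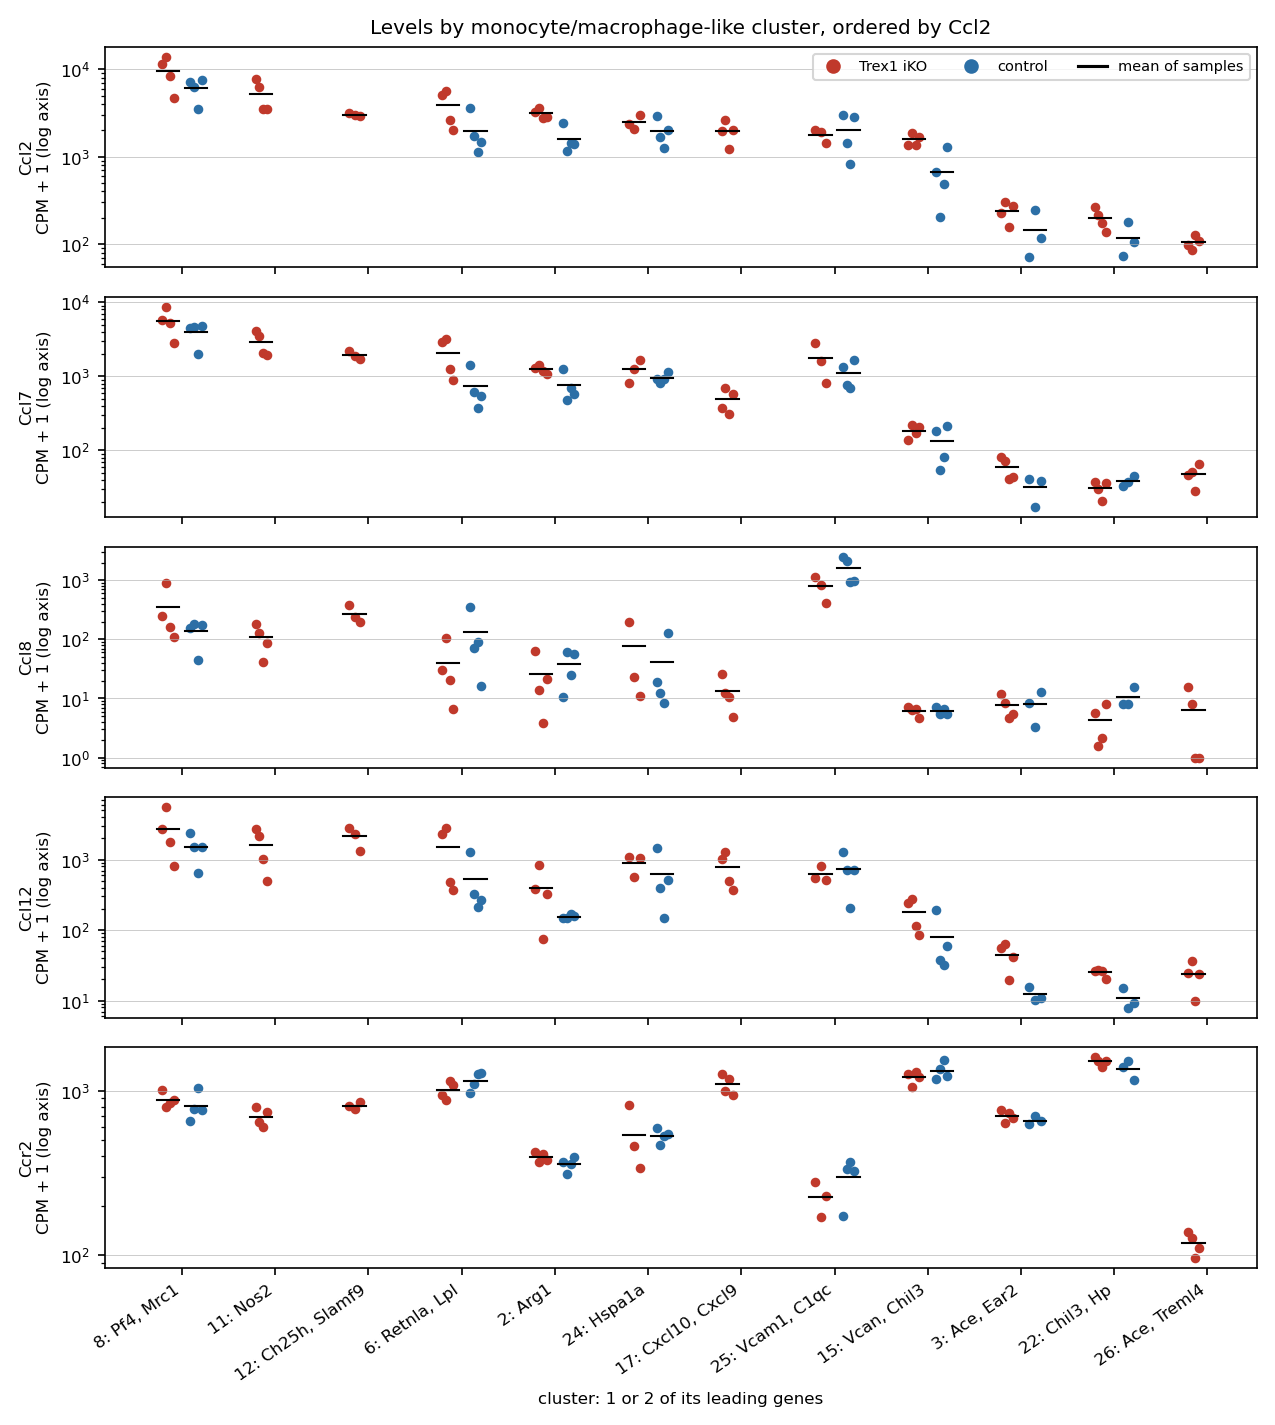
Level of each gene (CPM + 1, log axis) in the 12 monocyte/macrophage-like clusters, ordered by mean Ccl2, with 1 point per sample with at least 20 cells and black bars for group means. Ccl2, Ccl7 and Ccl12 fall broadly together from left to right, Ccl8 peaks in cluster 25 (411 to 2459 CPM), and Ccr2 is highest in clusters 22 and 15 and lowest in cluster 26. A level of 0 is drawn at 1.

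Ligand UMIs sat in few cells. The 10% of monocyte/macrophage-like cells with the most Ccl2 held 58.9% to 71.6% of a sample's Ccl2 UMIs in these cells, against 70.0% to 83.2% for Ccl7, 67.8% to 88.2% for Ccl12 and 96.4% to 98.7% for Ccl8. For Ccr2 the same share was 28.0% to 39.3%. The highest count in 1 cell was 1091 UMIs for Ccl2, 1125 for Ccl12 and 690 for Ccl8. Cells were then thinned to 1500 UMIs each, which left out 29 of 5639 iKO and 16 of 2832 control monocyte/macrophage-like cells. Among thinned cells with a Ccl7 UMI, 76.6% to 88.6% also had one of Ccl2, against 26.6% to 44.7% of cells without Ccl7, with the higher share in 8 of 8 samples. Ccl12 behaved alike, with 72.1% to 88.5% against 29.3% to 46.8%. For the receptor no such association was seen: 44.4% to 64.2% of cells with Ccl2 and 45.4% to 62.5% of cells without it had a Ccr2 UMI, higher with Ccl2 in 5 of 8 samples.

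The comparison of iKO with control samples asked whether induced loss of Trex1 in host cells altered these genes. Within monocyte/macrophage-like cells no member changed by edgeR's quasi-likelihood test with Benjamini-Hochberg adjustment over all genes. In these cells 11.1% of the 11746 genes tested were called (1299 genes), against 0 of the 5 members. None had an unadjusted p under 0.05 either. The class was made up of different clusters in the groups. Cluster 3 held 6.92% ± 1.70 of a sample's cells in iKO and 1.71% ± 0.767 in control samples, and cluster 2 held 3.45% ± 0.908 against 7.57% ± 2.97. Cluster 11 held 4.52% ± 2.82 against 0.511% ± 0.188 and cluster 12 held 4.25% ± 3.90 against 0.410% ± 0.389. Cluster 17 held 4.14% ± 2.89 against 0.300% ± 0.278 and cluster 26 held 2.37% ± 0.415 against 0.258% ± 0.211. The CPM ranges of the groups overlapped for all 5 members, whereas they did not overlap for 25.5% of genes at 10 CPM or more in 3 samples.

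For Ccl2 the log2 fold change (iKO over control) was 0.25 ± 0.30 (SE), with an adjusted p of 0.622 by edgeR. For Ccl7, at 1767, 1754, 1604 and 1104 CPM in iKO and 1171, 1255, 639 and 2143 CPM in control samples, it was 0.21 ± 0.33, with an adjusted p of 0.716. Control 4 was the highest sample for both genes and control 3 the lowest. Ccl12 stood at 1632, 1470, 628 and 412 CPM in iKO 1 to 4 and at 785, 516, 217 and 765 CPM in control 1 to 4, a log2 fold change of 0.84 ± 0.52 with an adjusted p of 0.316. Only iKO 1 and iKO 2 lay above every control. With both left out, a setting chosen after seeing the data, the Ccl12 value was -0.26 (adjusted p 0.807), Ccl2 was -0.07 (adjusted p 0.942) and Ccl7 was -0.07 (adjusted p 0.947), and the genes called fell from 1299 to 215.

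Ccl8 was the ligand with the opposite sign. Its level was 168, 126, 163 and 74.4 CPM in iKO and 337, 308, 92.9 and 132 CPM in control samples, a log2 fold change of -0.75 ± 0.42 (adjusted p 0.274, edgeR). Controls 1 and 2 lay above all iKO samples. Ccr2 was the steadiest member, at 899, 766, 793 and 833 CPM in iKO and 754, 635, 971 and 776 CPM in control samples. Its log2 fold change was 0.03 ± 0.12 (adjusted p 0.883, edgeR). In whole samples, where 2.59% of 13460 genes were called, 0 of 5 members were called, and adjusted p-values by edgeR ran from 0.375 for Ccl8 to 0.900 for Ccl7. Whole-sample Ccl2 was 1486, 1222, 1693 and 1424 CPM in iKO and 977, 907, 537 and 2547 CPM in control samples. Control 4, in which monocyte/macrophage-like cells made up 50.9% of cells against 22.3% to 28.9% in the other controls, was the highest of all 8. Without it the log2 fold change of Ccl2 was 0.89 in place of 0.17 (adjusted p 0.0696, edgeR). In such sums, fewer cells of a type and less RNA per cell cannot be told apart.

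Within the 3 subsets of these cells that were tested no member was called either, and the lowest adjusted p was that of Ccl2 in Arg1 macrophage-like cells. The unnamed subset (clusters 3, 8, 12, 24 and 26, 3335 cells) was not tested. The Cxcl9/Cxcl10 macrophage-like subset had 2 control samples, too few for a test. Cluster 8, the cluster highest in Ccl2 and Ccl7, was thus not tested on its own. Its Ccl2 was 9602 ± 3939 CPM in iKO and 6134 ± 1811 CPM in control samples, and the groups overlapped. In Arg1 macrophage-like cells (cluster 2, also marked by the hypoxia-type genes Vegfa and Ndrg1), Ccl2 was 3248, 3596, 2787 and 2821 CPM in iKO and 2403, 1153, 1414 and 1412 CPM in control samples. The groups did not overlap. The share of genes without overlap was 25.5% in all monocyte/macrophage-like cells and was not computed for this subset. The Ccl2 log2 fold change was 0.94 ± 0.19 with an adjusted p of 0.0785 by edgeR, in a subset where 0.237% of 7592 genes (18) and 0 of 5 members were called. With the hashtag number as a block in edgeR the adjusted p was 0.0231, and the DESeq2 Wald test gave 0.00275. The labels state no pairing of equal hashtag numbers across the 2 pools. Without control 1 it was 0.00234 and without iKO 4 it was 0.0442, whereas over all 8 omissions it reached 0.279. With iKO 1 and iKO 2 left out together the log2 fold change was 0.79 (adjusted p 0.688), and with coarser clusters, where the subset also takes in a cluster led by Pf4 and Mrc1, it was 0.49 (adjusted p 0.495). In the same cells Ccl7 had a log2 fold change of 0.70 ± 0.24 and Ccl12 one of 1.35 ± 0.46, each with an adjusted p of 0.212 by edgeR, and Ccr2 one of 0.12 ± 0.11 (adjusted p 0.713).

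In monocyte-like cells (clusters 15 and 22), Ccl2 was 820, 1063, 785 and 1059 CPM in iKO and 347, 175, 399 and 1006 CPM in control samples. Control 4 lay within the iKO range and the other controls below it. Cluster 15 alone held 1357, 1875, 1375 and 1694 CPM in iKO and 665, 203, 489 and 1281 CPM in control samples, which do not overlap, and cluster 22 held 135 to 264 CPM in iKO and 71.6 to 177 CPM in 3 control samples, which do. The mixture of the 2 clusters differed by sample: cluster 15 was 2.27% to 4.90% and cluster 22 2.29% to 4.55% of kept cells in iKO, against 1.18% to 5.02% and 0.295% to 4.81% in control samples. No test was run within either cluster, and the share of all genes without overlap was not computed for them. The log2 fold change was 0.85 ± 0.34 with an adjusted p of 0.149 by edgeR, where 9.49% of 8567 genes and 0 of 5 members were called. With the replicate block the adjusted p was 0.0485, and without control 4 the log2 fold change was 1.501 and the adjusted p 0.000427. Ccl12 had a log2 fold change of 0.92 ± 0.39 (adjusted p 0.178, edgeR). Without control 1 it was 1.57 (adjusted p 0.0209), and with coarser clusters 1.29 (adjusted p 0.00389, 7 samples). The coarser subset is a different set of cells, 1 cluster led by Chil3 and Tppp3, while Vcan and Dmkn lead a Cxcl9/Cxcl10 macrophage-like cluster there. In cluster 22, also led by Chil3, Ccl12 was 19.4 to 26.3 CPM in iKO and 6.95 to 14.0 CPM in control samples, not above the B-like range of 23.1 to 68.0 CPM. B-like cells held fewer UMIs (median 4012 against 13282 in cluster 22), so that range cannot decide whether the level was background. Ccr2, at 1424, 1285, 1347 and 1336 CPM in iKO and 1291, 1334, 1526 and 1209 CPM in control samples, gave -0.02 ± 0.07 (adjusted p 0.889). Ccl8 in these cells was 3.00 to 7.29 CPM.

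In C1q macrophage-like cells (clusters 6 and 25), where 2.62% of 9091 genes and 0 of 5 members were called, Ccl7 had a log2 fold change of 1.31 ± 0.40 (adjusted p 0.122, edgeR) and Ccl8 one of -1.11 ± 0.52 (adjusted p 0.297). Ccl7 stood at 2596, 3122, 1435 and 877 CPM in iKO and at 1388, 664, 447 and 751 CPM in control samples, and iKO 4 lay within the control range. Without control 1 the Ccl7 value was 1.71 (adjusted p 0.0457), and with iKO 1 and iKO 2 left out it was 0.46 (adjusted p 0.668). Ccl8 was 1342, 771, 285 and 201 CPM in control 1 to 4 and 350, 347, 383 and 129 CPM in iKO 1 to 4. Cluster 25, the main Ccl8 cluster, made up 0.316% and 0.525% of the cells of iKO 1 and iKO 2, against 6.40% and 4.32% in iKO 3 and iKO 4 and 1.14% to 2.71% in the controls. The part of this mixture in the C1q values was not tested.

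**Figure D3:**
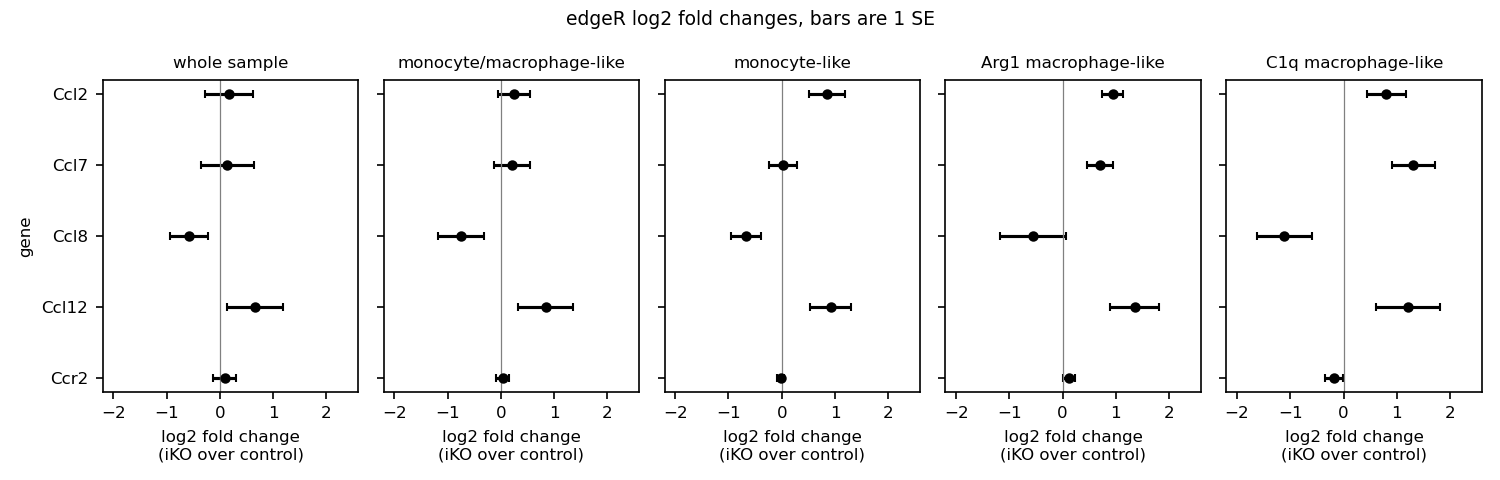
Log2 fold change of each member (iKO over control, edgeR) with bars of 1 SE, in whole samples, in all monocyte/macrophage-like cells and in 3 subsets. Ccr2 lies within 0.18 of 0 in all 5 panels, the Ccl8 values are below 0 and the Ccl2, Ccl7 and Ccl12 values above it, and none of these 25 values passed the adjusted threshold of 0.05.

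Over all cell classes, 1 of the 56 pairs of member and profile tested passed the adjusted threshold, and 18 had an unadjusted p under 0.05. In the classes not yet mentioned, the genes called were 3.21% of those tested in B-like, 3.02% in CD4 T-like, 1.67% in Treg-like, 2.86% in cDC2-like and 0.177% in mature DC-like cells, with 0 members called in any of them. The pair called was Ccl12 in CD8 T-like cells, where 3.73% of 9566 genes were called. Its level was 16.2, 18.6, 19.0 and 21.5 CPM in iKO and 10.2, 8.07, 11.98 and 14.5 CPM in control samples, a log2 fold change of 0.79 ± 0.19 (adjusted p 0.0475, edgeR). Ccl12 in B-like cells was higher than this, at 23.1 to 68.0 CPM. B-like cells held fewer UMIs, a median of 4012 against 7263 to 27572.5 in the CD8 T-like clusters. Free RNA can make up a larger part of the CPM of cells with fewer UMIs. The comparison therefore cannot decide whether the level in CD8 T-like cells exceeded the background. The summed level of the 6 monocyte/macrophage markers in these CD8 T-like cells was 139 to 185 CPM in iKO and 183 to 288 CPM in control samples. The call was lost in 7 of 8 omissions of a sample, with an adjusted p of up to 0.163.

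Ccr2 in the same CD8 T-like cells was 57.6, 73.5, 63.8 and 88.5 CPM in iKO and 42.2, 48.8, 49.0 and 51.8 CPM in control samples. The groups do not overlap, but the share of all genes without overlap was not computed for this class. The Ccr2 log2 fold change was 0.59 ± 0.15 with an adjusted p of 0.0540 by edgeR, 0.00777 with the replicate block and 0.0155 by DESeq2. In cells thinned to 1500 UMIs, however, it was 0.13 (adjusted p 0.810), and the share of CD8 T-like cells with a Ccr2 UMI was 8.24% ± 2.10 in iKO and 7.34% ± 1.497 in control samples (exact permutation p 0.514, n = 4 per group, adjusted p 0.707). B-like cells gave 6.01% ± 4.81 and 7.85% ± 2.93 at the same depth. The Ccr2 level in CD8 T-like cells relative to monocyte/macrophage-like cells overlapped between genotypes. The genotype difference in this relative level was 0.46 on the log2 scale (exact permutation p 0.114, adjusted p 0.665 over 34 such tests, n = 4 per group). A lone result could not pass after adjustment over 34 tests, so this does not show that the 2 classes were alike.

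Neutrophil-like cells held Ccl2 at 1390, 694, 630 and 206 CPM in iKO and 337, 404, 255 and 194 CPM in control samples. The log2 fold change was 1.35 ± 0.43 (adjusted p 0.198, edgeR), where 1.61% of 6824 genes were called. Without iKO 4 it was 1.66 (adjusted p 0.0177). The summed monocyte/macrophage markers in these neutrophil-like cells were 2588 to 4364 CPM in iKO and 1480 to 3611 CPM in control samples, and their part in the Ccl2 values was not tested. The ratio of Ccl2 to Ccl7 UMIs was 2.57 to 6.64 in neutrophil-like cells and 1.71 to 2.05 in monocyte/macrophage-like cells. It was 1.33 to 3.71 in B-like and 1.20 to 3.68 in CD8 T-like cells, which overlap both.

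The share of monocyte/macrophage-like cells with a UMI, at 1500 UMIs per cell, was 54.4% ± 4.04 in iKO and 45.6% ± 7.30 in control samples for Ccl2 (exact permutation p 0.114, adjusted p 0.419 over 55 tests, n = 4 per group). For Ccl12 it was 29.7% ± 8.94 against 17.3% ± 5.18 (exact permutation p 0.0571, adjusted p 0.286, n = 4 per group). For Ccr2 it was 58.8% ± 2.42 against 56.3% ± 7.60 (exact permutation p 0.771, n = 4 per group). In 7 of the 55 tests the groups did not overlap, each with the smallest possible exact permutation p and an adjusted p of 0.224 (n = 4 per group). Of these, 4 were in subsets: in Arg1 macrophage-like cells 52.7% ± 2.80 against 38.0% ± 6.02 had a Ccl2 UMI, 29.2% ± 4.99 against 22.3% ± 1.96 a Ccl7 UMI and 21.1% ± 6.35 against 7.86% ± 1.02 a Ccl12 UMI, and in C1q macrophage-like cells 69.3% ± 3.90 against 51.5% ± 9.11 had a Ccl2 UMI. The other 3 were Ccl2 in CD4 T-like and Ccl8 in cDC2-like cells, lower in iKO, and Ccl12 in CD8 T-like cells, higher in iKO. Ccl8 was found in 0.194% ± 0.388 of cDC2-like cells in iKO and 1.32% ± 0.519 in control samples. In B-like cells the Ccl8 shares were 1.73% ± 1.22 and 3.08% ± 2.37. No share over all genes was computed at this depth, so the 7 of 55 have no background rate to be read against. B-like cells at the same depth gave 18.8% ± 10.7 and 17.7% ± 7.41 for Ccl2. Without thinning, 73.9% to 86.6% of monocyte/macrophage-like cells (median 13161 to 16185 UMIs) and 31.5% to 46.2% of B-like cells (median 3558 to 4905 UMIs) had a Ccl2 UMI. With 4 samples against 4 the smallest possible two-sided p is 0.0286.

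The share of each ligand in the mix overlapped between genotypes. A lone result at the smallest possible exact permutation p of 0.0286 could not pass after adjustment over the 8 tests. These tests therefore cannot show that the mix was alike. Ccl2 made up 52.7% ± 4.27 of the ligand UMIs of monocyte/macrophage-like cells in iKO and 53.7% ± 3.58 in control samples (exact permutation p 0.714, adjusted p 0.816 over 8 tests, n = 4 per group), and Ccl7 made up 27.9% ± 2.64 and 28.7% ± 2.70. Ccl12 made up 23.3%, 22.1%, 12.2% and 10.8% in iKO 1 to 4 and 16.8%, 12.2%, 9.59% and 11.2% in control 1 to 4 (exact permutation p 0.286, adjusted p 0.571, n = 4 per group). Ccl8 made up 2.35% ± 0.585 in iKO and 5.14% ± 2.603 in control samples (exact permutation p 0.114, adjusted p 0.457, n = 4 per group). UMIs from the 3′ end are not divided by transcript length, so these shares compare captured molecules.

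**Figure D4:**
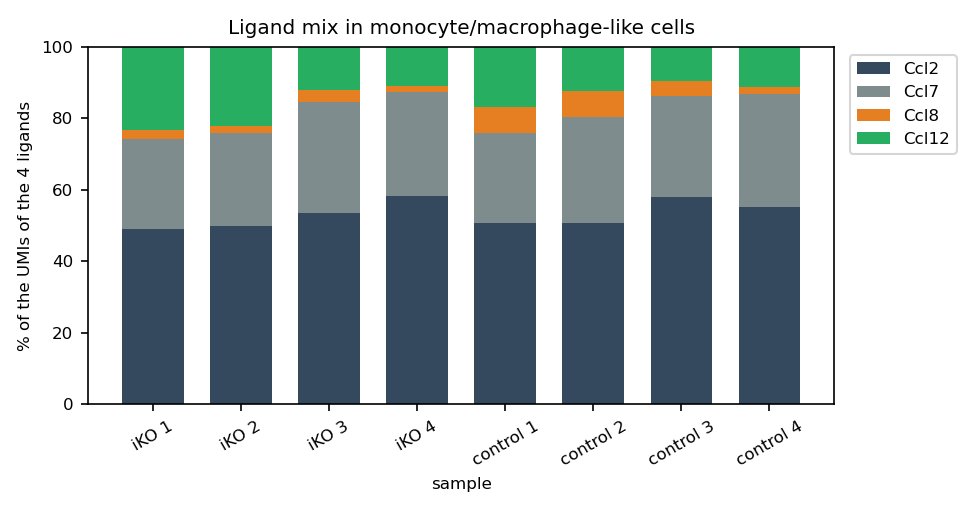
Share of each of the 4 ligands among their summed UMIs in monocyte/macrophage-like cells (% of UMIs, stacked to 100), 1 bar per sample. Ccl2 makes up 49.0% to 58.3% of every bar, and Ccl12 is largest in iKO 1 and iKO 2 (23.3% and 22.1%).

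Other genes of the pathway did change in monocyte/macrophage-like cells. The median log2 fold change of all genes tested there was -0.01, and the counts that follow are by edgeR at an adjusted p under 0.05, to be read against 11.1% of genes called. Among inducers and transcription factors of the ligands, 4 of 20 rose and 1 fell, with a list median of 0.055. The interferon-signalling factor Stat2 rose (118 ± 54.5 against 37.0 ± 10.1 CPM, log2 fold change 1.68, adjusted p 0.0231), as did Myd88, the adaptor of Toll-like and IL-1 receptors (132 ± 20.6 against 68.4 ± 13.7 CPM, 0.92, adjusted p 0.0151), and Ifng (10.3 ± 4.34 against 3.32 ± 1.40 CPM, 1.68, adjusted p 0.0255). Ifng encodes a cytokine of T and NK cells, and the summed level of 5 T cell markers in these profiles was 52.2 to 115 CPM in iKO and 40.1 to 97.4 CPM in control samples, whose part in the Ifng value was not tested. The other member of this list that rose was Irf9, and the one that fell was the AP-1 subunit Fos.

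Among other CC chemokines 1 of 9 rose and 2 fell, with a list median of -0.36. The member that rose was Ccl4 (1410 ± 375 against 819 ± 139 CPM, log2 fold change 0.76, adjusted p 0.0457, edgeR). Those that fell were Ccl6 (998 ± 302 against 2096 ± 854 CPM, -1.14, adjusted p 0.0406) and Ccl17, a ligand of Ccr4 (0.627 ± 0.430 against 6.29 ± 5.55 CPM, -3.26, adjusted p 0.0365). The Ccl17 ranges of the groups overlapped, and Ccl17 was a leading gene of the cDC2-like cluster. The summed cDC2 markers in these profiles were 161 to 210 CPM in iKO and 122 to 188 CPM in control samples, and their part in the Ccl17 value was not tested. Of the Ccr2 signalling list 3 of 11 rose and 0 fell, with a list median of 0.16: the kinase Ptk2b (0.73, adjusted p 0.0318), the GTPase Rac2 (0.54, adjusted p 0.0236) and the exchange factor Vav1 (0.64, adjusted p 0.0261). In the monocyte state list 2 of 6 rose and 0 fell, with a list median of 0.33: Ly6c2, a classical-monocyte marker (1948 ± 779 against 309 ± 141 CPM, 2.65, adjusted p 0.00902) and Spn, which encodes CD43 (1.08, adjusted p 0.0166). Ly6c2 was also among the interferon-stimulated genes kept out of clustering, and whether its rise reflects more classical monocytes was not tested. The non-classical-type cluster 3 made up 6.92% ± 1.70 of a sample's cells in iKO and 1.71% ± 0.767 in control samples. Cluster 26 made up 2.37% ± 0.415 against 0.258% ± 0.211. The part of these 2 clusters in the Spn value was not tested. None of 2 tested other receptors (Ccr1 and Cx3cr1) and none of 4 tested chemokine-trimming proteases (Dpp4, Mmp9, Mmp12 and Mmp14) was called. With the replicate block the adjusted p was 0.0641 for Ccl4 and 0.101 for Ccl17, and both calls were lost. Of the 11 genes of these lists named here with an adjusted p, Ly6c2 and Myd88 kept their calls in all 8 omissions of a sample. Ly6c2 was the only one called with iKO 1 and iKO 2 left out (log2 fold change 1.94, adjusted p 0.0375).

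The same lists were counted in monocyte-like cells, the subset highest in Ccr2, where 9.49% of genes were called. Of the Ccr2 signalling list 1 of 11 rose there, Rac2 (log2 fold change 0.34, adjusted p 0.0354, edgeR), while Ptk2b (0.21, adjusted p 0.439) and Vav1 (0.25, adjusted p 0.248) were not called. Ly6c2 rose (2.18, adjusted p 1.53e-06) and Spn was not called (0.32, adjusted p 0.395). Among inducers and transcription factors 3 of 17 rose (Myd88, Stat2 and Irf9) and 2 fell (Il1b and Fos). Il1b, which encodes the cytokine interleukin-1 beta, stood at 2317 ± 117 CPM in iKO and 3596 ± 191 CPM in control samples, a log2 fold change of -0.67 (adjusted p 2.89e-06, edgeR), and kept its call in all 8 omissions of a sample. The genes of this subset were named after their values were seen.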

How the data were processed

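Single-cell 3′ RNA-seq counts of 8 hashtagged samples, 4 per genotype, were used. Per the file headers and the submitters' processing notes, the authors made the count matrices with Cell Ranger 7.1.0, and the notes name the build GRCm39. The members and gene lists were chosen with earlier results of these data known. Of 23731 deposited barcodes, 1241 with fewer than 300 genes or over 10% mitochondrial UMIs were removed, then 439 with a Scrublet score above 0.25 as doublets. Cells were clustered (scanpy 1.11.5, Leiden resolution 2, 30 components, 2000 variable genes, 34 clusters) without the members, list genes or interferon-stimulated genes, and clusters were named from listed markers with thresholds set after the data were seen. Members' counts were summed per sample and class (20 cells or more). Genotypes were compared with edgeR 4.0.16 (quasi-likelihood, TMM, low-count filter, all genes adjusted together, 3 or more samples per group). Alternatives were DESeq2 1.42.0, RLE factors, no filter, a replicate block, omitted samples, retained doublets, thinned cells and Leiden resolution 1. Shares were compared by exact permutation. On simulated counts, 90.5% of 200 genes changed 4-fold were recovered for monocyte/macrophage-like cells (11746 genes), with 6.70% false calls. Changes as small as those of the members were not simulated, so this rate does not give the power to call them. Same-numbered samples correlated in their deviations from the group means at 0.503, 0.236, 0.146 and 0.530 in whole samples, so a replicate block was run beside the main tests, which are unpaired. Some pairs of different numbers correlated more (iKO 2 with control 1 at 0.582, iKO 3 with control 4 at 0.350). In monocyte/macrophage-like cells the same-number values were 0.193, -0.118, -0.0705 and 0.166. Samples of 1 group differed beyond sampling noise in every pair (chi-square per degree of freedom 7.62 to 214). Named genes are the members and, per list, up to 3 called genes with the largest change. Some list genes are not reported here and were left out of the list counts and of that choice.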

Additional observations from a re-analysis of the deposited data

Results flagged for a closer look

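Each group of 4 samples was checked for a sample that lies far from the other 3. Of 86 such groups 3 gave one, and chance alone marks about 1 in 20 groups. Ccl8 in C1q macrophage-like cells was 129 CPM in iKO 4, against 347 to 383 CPM in the other iKO samples. In neutrophil-like cells Ccl8 was 63.7 CPM in control 4, against 12.9 to 20.4 CPM in the other controls. Ccl12 in neutrophil-like cells was 574 CPM in iKO 1, against 42.4 to 130 CPM in the other iKO samples, and iKO 1 had 56 neutrophil-like cells.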

How the results depend on the processing

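Of 886 recomputed values for 62 results, 715 kept their direction and their side of the threshold (counts of genes: stayed within 1.5 times), 65 lost a call, 21 gained one, 50 counts moved and 35 changed sign. Those that changed sign follow. With iKO 1 and iKO 2 left out, chosen after seeing the data, monocyte/macrophage-like Ccl2 was -0.065, Ccl7 -0.070, Ccl12 -0.26 and Ccr2 -0.055 on the log2 scale, and C1q Ccl12 was -0.20. In cells thinned to 1500 UMIs monocyte/macrophage-like Ccr2 was -0.019 and monocyte-like Ccl7 -0.081. At Leiden resolution 1 monocyte-like Ccl7 was -0.32 and Ccr2 0.078, Arg1 Ccl8 0.77, and C1q Ccl2 -0.46, Ccl7 -0.12 and Ccl12 -0.31. With no low-count filter monocyte-like Ccr2 was 0.025. Without thinning the Ccl8 share of cells differed by 0.0805 percentage points. Leaving out 1 sample gave -0.085 to 0.89 (Ccl2), -0.15 to 0.94 (Ccl7) and -0.019 to 0.31 (Ccr2) in whole samples, -0.011 to 0.58 (Ccl7) and -0.037 to 0.14 (Ccr2) in monocyte/macrophage-like cells, and -0.18 to 0.45 (Ccl7) and -0.058 to 0.040 (Ccr2) in monocyte-like cells. It gave -0.0464 to 8.73 percentage points for the Ccl8 source share, -2.94 to 0.387 for the Ccl2 and -1.93 to 0.196 for the Ccl7 part of the ligand mix, and -1.30 to 4.13 for the share of cells with Ccr2. Genes called in whole samples were 1380 by DESeq2, 683 with the replicate block, 737 in thinned cells and 82 without iKO 1 and iKO 2, against 348, and 110 to 490 without 1 sample. In monocyte/macrophage-like cells they were 2005 by DESeq2 and 215 without iKO 1 and iKO 2, against 1299, and 324 to 1570 without 1 sample. In monocyte-like cells they were 370 thinned and 320 without iKO 1 and iKO 2, against 813, and 516 to 843 without 1 sample. In Arg1 cells they were 153 by DESeq2, 297 unfiltered, 108 with the block, 44 at resolution 1 and 2 without iKO 1 and iKO 2, against 18, and 1 to 174 without 1 sample. In C1q cells they were 358 by DESeq2, 406 unfiltered, 115 thinned, 5 at resolution 1 and 37 without iKO 1 and iKO 2, against 238, and 43 to 290 without 1 sample. In CD8 T-like cells they were 541 by DESeq2, 1078 with the block, 59 thinned and 71 without iKO 1 and iKO 2, against 357, and 98 to 697 without 1 sample. Of pairs of member and profile, 1 of 56 was called in the main test, 3 of 56 by DESeq2, 5 of 56 with the block (Ccr2 and Ccl12 in CD8 T-like, Ccl8 in cDC2-like at an adjusted p of 0.0160, Ccl2 in Arg1 and monocyte-like cells), 15 of 60 with no low-count filter, 1 of 52 at resolution 1, 0 of 37 in thinned cells (12 with an unadjusted p under 0.05, edgeR) and 0 of 59 without iKO 1 and iKO 2 (12 likewise). The cause of these changes was not tested. Counting depth limits Ccl8, which was at 10 CPM or less in several clusters. In cDC2-like cells Ccl8 was 0.817 to 51.1 CPM, against 3.89 to 48.6 CPM in B-like cells.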
